A study of Homo sapiens with 145 samples.

Results

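The arrays described here compare HT-1080 cells exposed to 30 µM quercetin (QUE) with HT-1080 cells exposed to the dimethyl sulfoxide (DMSO) vehicle of the same experiment. Of the 145 arrays in the series, 10 belong to this comparison, 5 dosed and 5 vehicle. They were chosen by the dose and vehicle names in the sample titles, and by replicate number: numbers 1, 3, 4, 5 and 6 were used in both groups, and the number 2 arrays were left out. QUE 30 µM cells received quercetin for 24 h in culture medium that already held 10% serum, with a final 0.1% DMSO. Vehicle cells received DMSO in the same way. The whole series also holds arrays of etoposide, of methyl methanesulfonate and of quercetin at 1, 3, 10, 60, 80 and 100 µM, all in the same line. Total RNA was amplified by a kit that copies from the 3′ end of transcripts and read on Affymetrix gene arrays. HT-1080 is 1 clonal cancer line, so the numbers show the spread between arrays of that line only, and the labels do not say whether they stand for separate cultures. P-values come from 1 fit of 8 quercetin and vehicle groups. They measure the spread between arrays pooled over those groups, which may be technical. For a single gene that spread can be wider or narrower than the spread of the 10 arrays compared here.

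HT-1080 was established from a human fibrosarcoma, a connective tissue tumour, and is known to carry an activating NRAS mutation with functional p53. Quercetin is a plant flavonol that inhibits many protein kinases, oxidises readily in culture medium and can act on topoisomerases. Flavonols of this kind are known to release NRF2, the transcription factor of antioxidant genes, from its inhibitor KEAP1, and to bind the aryl hydrocarbon receptor. Cells take quercetin up, conjugate it to glucuronate or sulfate and pump it out again.

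Values are log2 GCRMA summaries per probe set, so a difference of 1 is a factor of 2 and a value under 4 is taken as background. A gene was tested when its probe set reached 4 in at least 5 of the 10 arrays, and it was called when the Benjamini-Hochberg adjusted p of limma was under 0.05 and the fold change was at least 1.5. Array medians lay between 3.34 and 3.36 in QUE 30 µM and between 3.34 and 3.37 in vehicle. Of 7 mesenchymal markers, 6 averaged at least 4 in both groups, vimentin among them, and their summed level was 65.41 to 66.15 in QUE 30 µM and 66.38 to 67.85 in vehicle. None of 8 epithelial, 4 blood cell and 4 endothelial markers averaged 4 in either group, among them EPCAM, CDH1, PTPRC and PECAM1. Their sums were 20.49 to 21.96 against 20.81 to 21.91, 11.37 to 12.07 against 11.20 to 11.92, and 11.91 to 12.62 against 12.45 to 13.06 in QUE 30 µM against vehicle.

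Some arrays stood apart from the others of their dose. The change of the number 2 pair (dosed minus vehicle) had a Pearson correlation across genes of 0.116 with the mean change of the other numbers and of 0.784 with etoposide at 0.1 µM, a topoisomerase II poison. The 5 numbers used here had correlations of 0.798 to 0.927 with the mean of the other numbers and of at most 0.358 with any etoposide dose. Among them the dosed array of number 3 carried the lowest levels of cell division genes. Over 30 genes of G2/M and mitosis its mean change was -2.81, and the other 4 numbers lay between -1.06 and -0.80. The list counts of cell division genes, and the folds of those described in full, are therefore given with and without number 3.

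Exposure to 30 µM quercetin changed 2095 of 10831 tested genes, which is 19.3%. Of these, 1059 were higher (9.78%) and 1036 were lower (9.57%) than in vehicle, with nearly equal counts of rises and falls. The change was at least 2-fold for 292 rises and 351 falls and at least 4-fold for 28 rises and 25 falls. The median change over all tested genes was 0.01 on the log2 scale, and the middle 90% lay between -0.84 and 0.81. In 2060 of the 2095 called genes all 5 numbered pairs moved in 1 direction. Arrays of the groups did not overlap for 3748 genes (34.6%) and for 1811 of the called ones, or 16.7% of all tested. In 146 called genes 1 group averaged under 4, and the size of those changes is uncertain. Of the rises, HSD17B2, ESM1, KLF5, CYP4F3 and NMRAL2P were the largest by the naming rule, and of the falls GALNT15, RAB26, SLC2A12, CLIC3 and DLGAP5.

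**Figure D1:**
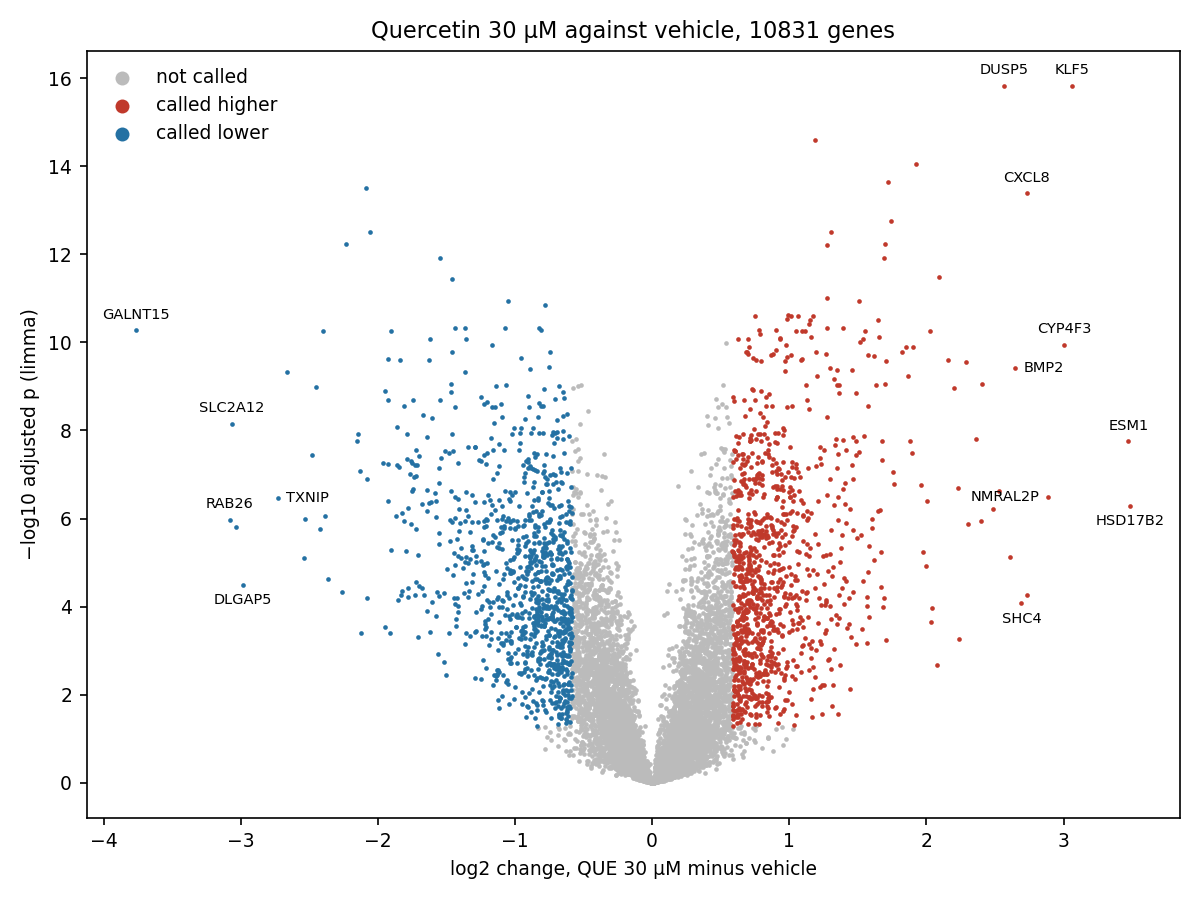
Each point is 1 of the 10831 tested genes, with the log2 change of QUE 30 µM minus vehicle on the x axis and -log10 of limma's adjusted p on the y axis. Red points are the 1059 genes called higher, blue points the 1036 called lower and grey points the rest. GALNT15 lies farthest to the left at -3.76 and HSD17B2 farthest to the right at 3.48 among the labelled genes.

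The largest rises were in a steroid enzyme, secreted factors and a transcription factor. Values by array are given in the order of numbers 1, 3, 4, 5 and 6. The naming rule took the largest rises and falls only among called genes without overlap, so their separation was fixed by that choice. HSD17B2, which oxidises active sex steroids to weaker ones, read 7.75, 8.26, 7.46, 7.30 and 7.44 in the QUE 30 µM arrays, against 4.64, 5.02, 4.13, 3.40 and 3.59 in the vehicle arrays. ESM1, a secreted proteoglycan made by endothelial and tumour cells, read 11.18, 11.00, 11.08, 11.09 and 11.28 in the QUE 30 µM arrays, against 8.54, 7.45, 7.53, 7.15 and 7.60 in the vehicle arrays. No dosed array of either gene overlapped a vehicle array, and the rises were 3.48 ± 0.48 and 3.47 ± 0.39 on the log2 scale (SE), or 11.2-fold and 11.1-fold, with adjusted p of 5.08e-07 and 1.72e-08. KLF5, a zinc finger transcription factor of proliferating epithelia and smooth muscle, read 8.65, 9.04, 8.95, 8.83 and 8.71 in the QUE 30 µM arrays, against 5.90, 5.73, 5.61, 5.90 and 5.73 in the vehicle arrays. The 5 KLF5 values of each group lay within a narrow band, and its rise of 8.35-fold had an adjusted p of 1.49e-16. BMP2 and BMP6, ligands of the bone morphogenetic protein family, rose 6.27-fold and 5.76-fold, with log2 changes of 2.65 and 2.53. PDE3A, a phosphodiesterase that degrades cyclic AMP, rose 6.66-fold, and SHC4, an adaptor of receptor tyrosine kinases, rose 6.46-fold. CYP4F3, which hydroxylates leukotriene B4, read 6.42, 6.79, 6.04, 4.57 and 5.25 in the QUE 30 µM arrays, against 2.37, 2.91, 3.09, 2.89 and 2.79 in the vehicle arrays. All vehicle values of CYP4F3 were under 4, so its 8.01-fold rise has an uncertain size, and the same holds for NMRAL2P (7.39-fold), a transcribed pseudogene, and for TREM2 (6.11-fold), a receptor best known from macrophages and microglia. CYP4F3, NMRAL2P and TREM2 passed the filter only through their dosed arrays. BBOF1 rose 5.29-fold from a vehicle mean under 4, with 1 vehicle array at 4.04.

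The largest falls included enzymes and carriers of sugars, amino acids and lipids. GALNT15, a transferase that starts mucin-type sugar chains, read 2.77, 3.05, 4.03, 3.86 and 3.67 in the QUE 30 µM arrays, against 5.79, 7.63, 8.02, 7.42 and 7.33 in the vehicle arrays. Its groups did not overlap, though the dosed mean was under 4, and the fall was 13.6-fold with an adjusted p of 5.29e-11. TXNIP, which binds thioredoxin and restrains glucose uptake, read 7.73, 6.93, 7.13, 7.65 and 7.55 in the QUE 30 µM arrays, against 8.75, 10.22, 11.12, 10.38 and 10.17 in the vehicle arrays. Number 1 had the lowest of the vehicle values for TXNIP, yet its 5 dosed arrays lay below all of them, with a 6.64-fold fall and an adjusted p of 3.37e-07. The glucose transporter SLC2A12 read 4.36, 3.93, 5.07, 4.93 and 4.57 in the QUE 30 µM arrays, against 6.33, 8.03, 8.16, 7.93 and 7.73 in the vehicle arrays. All dosed arrays were again below all vehicle arrays, with number 1 lowest in vehicle, and the fall was 8.37-fold. SLC38A6, of a family of amino acid transporters, fell 5.81-fold, SLCO1B3, a carrier of organic anions, fell 5.36-fold, and PLA2G4A, the phospholipase that frees arachidonic acid, fell 5.77-fold. TLCD1, a membrane lipid protein, fell 6.32-fold, ANXA10, an annexin, fell 5.59-fold, and TMEM87B, a Golgi membrane protein, fell 5.47-fold. RAB26, a small GTPase of secretory vesicles (8.46-fold), CLIC3, of the intracellular chloride channel family (8.21-fold), and the collagen chain COL8A1 (5.27-fold) fell to dosed means under 4, so the size of those falls is uncertain. CLIC3 and COL8A1 passed the filter only through their vehicle arrays.

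**Figure D2:**
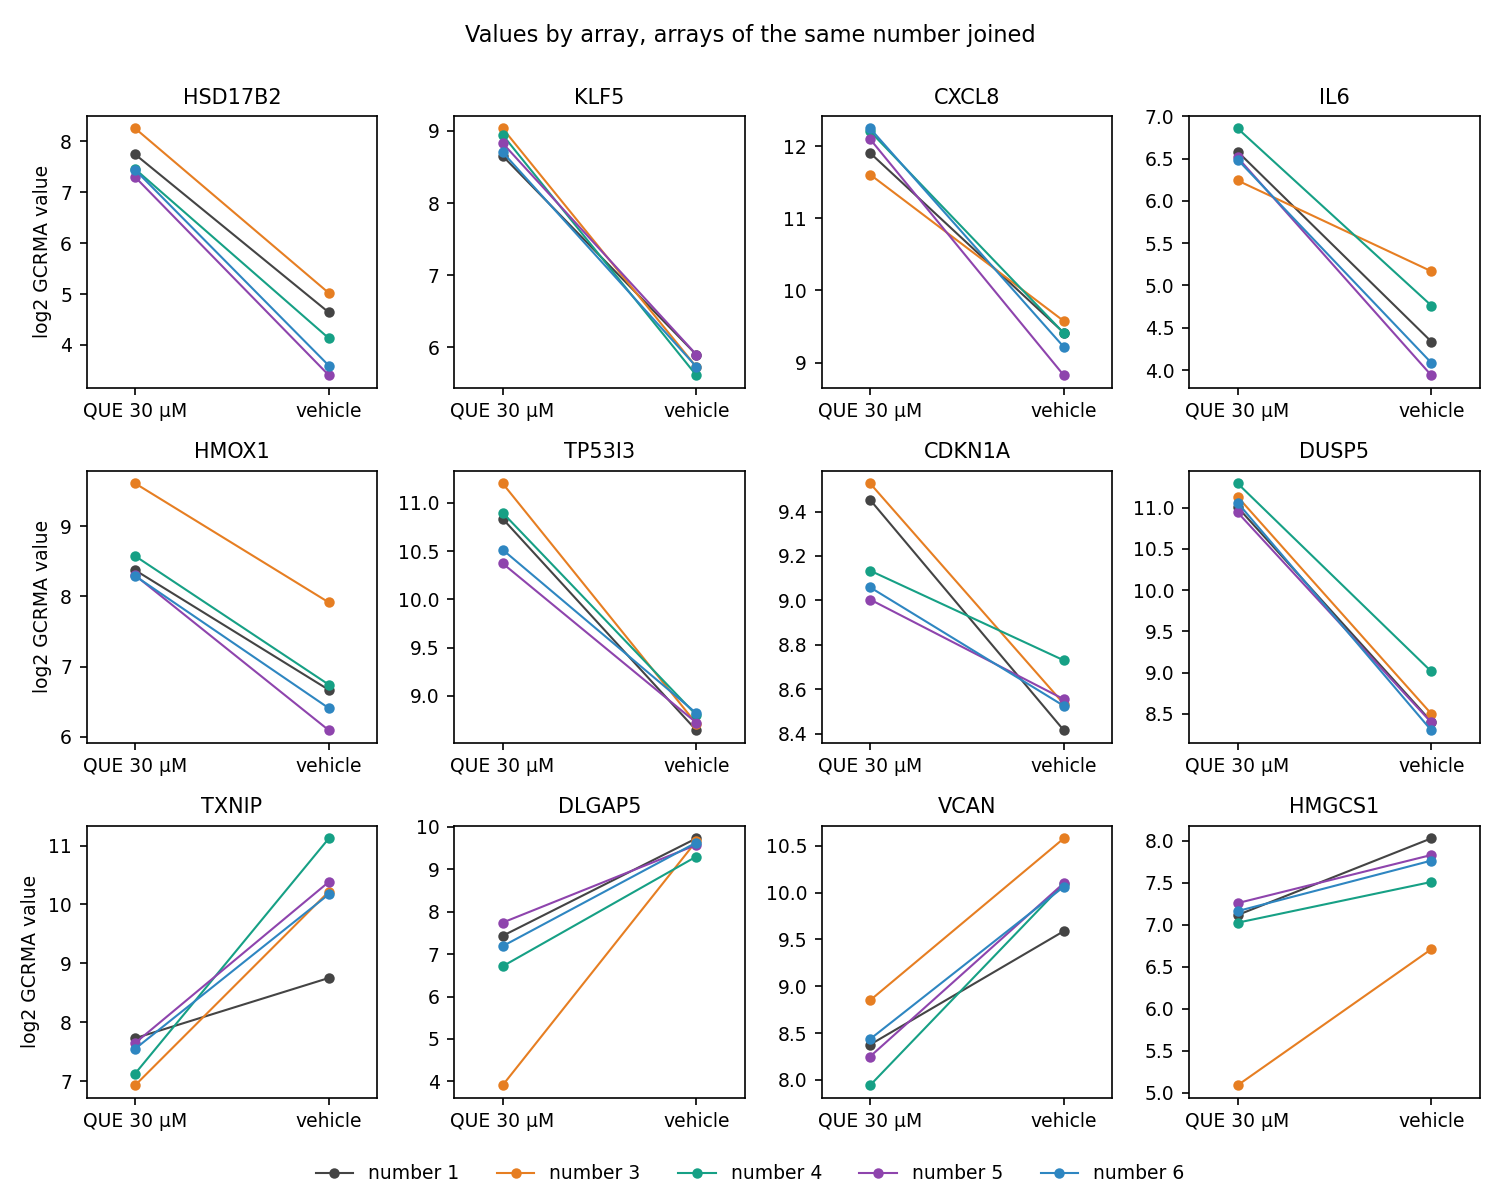
Each panel is 1 gene, with the log2 GCRMA value on the y axis, the 5 QUE 30 µM arrays on the left and the 5 vehicle arrays on the right, and arrays of the same number joined by a line. DLGAP5 was at 3.91 in the dosed array of number 3 and between 6.71 and 7.74 in the other dosed arrays, while the 5 lines of KLF5 and of DUSP5 run close together.

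Genes of G2 phase and mitosis, whose products condense chromosomes, build the spindle and separate the daughter cells, were lower at 30 µM than in vehicle. All 30 list members were tested, 27 fell and 0 rose, so that 90.0% were called lower, against 9.57% of all genes. The median change of the list was -1.13, against 0.01 over all genes. KIF23, KIF11 and CDK1 were not called, with changes of -0.69, -0.74 and -0.45. Without number 3 the count was 23 and the median -0.78, and without the replicate block it was also 23. In RNA from a whole culture, fewer cells in a phase of the cycle and less RNA per cell cannot be told apart.

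DLGAP5, a spindle protein that stabilises microtubules at the kinetochore, read 7.43, 3.91, 6.71, 7.74 and 7.19 in the QUE 30 µM arrays, against 9.73, 9.66, 9.30, 9.57 and 9.63 in the vehicle arrays. The number 3 dosed array was the lowest by far, but each of the other 4 dosed arrays also lay below all vehicle arrays. The fall was 7.91-fold with an adjusted p of 3.20e-05, and it was 4.89-fold without number 3 and 4.70-fold without its dosed array alone. KIF20A, a kinesin of cytokinesis, read 7.68, 5.39, 6.56, 7.67 and 7.42 in the QUE 30 µM arrays, against 9.55, 9.30, 9.04, 9.33 and 9.43 in the vehicle arrays. BUB1, a kinase of the spindle checkpoint, read 7.13, 4.81, 6.46, 7.36 and 7.02 in the QUE 30 µM arrays, against 9.08, 8.93, 8.73, 8.87 and 8.98 in the vehicle arrays. HMMR, a spindle protein that also binds hyaluronan, read 8.65, 5.80, 7.93, 8.81 and 8.38 in the QUE 30 µM arrays, against 10.24, 10.03, 9.84, 9.98 and 10.08 in the vehicle arrays. In all these genes the number 3 dosed array was lowest, and the groups did not overlap with or without it. Falls were 5.22-fold for KIF20A, 5.14-fold for BUB1 and 4.35-fold for HMMR, with adjusted p of 8.81e-07, 2.30e-05 and 3.93e-04. Among the other members, the cyclin CCNB1 changed by -1.70, the checkpoint kinase BUB1B by -1.95, the activator of the anaphase-promoting complex CDC20 by -1.67 and the mitotic kinase PLK1 by -1.56 on the log2 scale. AURKA, the spindle pole kinase, fell 2.56-fold. Without number 3 the falls were 4.00-fold for KIF20A, 3.79-fold for BUB1, 3.02-fold for HMMR and 1.98-fold for AURKA, all still called, and HMMR fell 2.89-fold without the dosed array of number 3 alone. Changes without number 3 were -1.35 for CCNB1, -1.39 for BUB1B, -1.39 for CDC20 and -1.46 for PLK1, also called. These members were chosen after their values were seen, except AURKA, which the naming rule took.

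Promoters of many cell cycle genes are known to hold a cell cycle genes homology region (CHR, TTTGAA) that the DREAM and MuvB complexes bind, with CCAAT boxes of the factor NF-Y upstream of it. These letters were searched on both strands in the 250 bases before the start of each gene, in RefSeq promoter sequences of GRCh38.p14, taking the start listed first. Of the 30 mitosis genes, 25 had a sequence, and 13 of them (52.0%) held TTTGAA, against 8.49% of 9009 tested genes with a sequence. CCAAT was in 21 of the 25 (84.0%), against 35.5% of the tested genes. Of the 881 genes called lower with a sequence 14.4% held TTTGAA, and of the 856 called higher 7.01%. The share of the mitosis list describes how that list was composed and not the response to quercetin, and its called and uncalled members were not compared. A match describes these letters and is not a bound site. The windows of the falls described above are shown with matches in capitals, TTTGAA or its reverse complement and CCAAT or its reverse complement.
DLGAP5, GRCh38.p14 chr14:55191586-55191835, minus strand: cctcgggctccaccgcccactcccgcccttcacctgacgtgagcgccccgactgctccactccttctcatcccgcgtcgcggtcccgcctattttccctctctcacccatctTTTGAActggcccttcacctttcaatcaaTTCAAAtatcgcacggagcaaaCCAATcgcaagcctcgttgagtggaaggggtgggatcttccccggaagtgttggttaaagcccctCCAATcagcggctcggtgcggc
HMMR, GRCh38.p14 chr5:163460382-163460631, plus strand: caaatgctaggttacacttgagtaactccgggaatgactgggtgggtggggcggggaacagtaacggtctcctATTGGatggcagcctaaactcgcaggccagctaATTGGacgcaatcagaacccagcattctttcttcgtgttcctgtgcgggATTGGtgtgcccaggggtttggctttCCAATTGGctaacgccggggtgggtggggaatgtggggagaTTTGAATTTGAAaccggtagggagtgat
KIF20A, GRCh38.p14 chr5:138178862-138179111, plus strand: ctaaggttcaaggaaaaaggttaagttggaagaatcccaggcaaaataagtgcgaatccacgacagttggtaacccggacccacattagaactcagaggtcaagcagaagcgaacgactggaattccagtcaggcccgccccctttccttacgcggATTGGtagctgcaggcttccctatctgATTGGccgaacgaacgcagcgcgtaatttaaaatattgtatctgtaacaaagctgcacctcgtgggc
BUB1, GRCh38.p14 chr2:110678064-110678313, minus strand: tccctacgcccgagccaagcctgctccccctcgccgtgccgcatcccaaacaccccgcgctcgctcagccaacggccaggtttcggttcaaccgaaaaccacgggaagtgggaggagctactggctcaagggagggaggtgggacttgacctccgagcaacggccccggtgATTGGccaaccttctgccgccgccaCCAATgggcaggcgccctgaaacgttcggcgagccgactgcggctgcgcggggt
DLGAP5 has TTTGAA once on each strand and 2 copies of CCAAT. HMMR has 2 copies of TTTGAA directly side by side and 5 CCAAT matches, of which 1 pair on opposite strands overlaps. The KIF20A window held 2 CCAAT matches on the reverse strand and no TTTGAA. The BUB1 window held 1 CCAAT match on each strand and no TTTGAA either.

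Genes of the G1/S transition and of DNA replication were called lower more often than higher. Of 32 tested members, 9 fell (28.1% against 9.57% of all genes) and 2 rose (6.25% against 9.78%), and the median was -0.10. POLA1, the catalytic subunit of the polymerase that primes DNA synthesis, read 6.42, 4.84, 5.64, 6.24 and 6.23 in the QUE 30 µM arrays, against 7.59, 7.12, 6.96, 7.25 and 7.22 in the vehicle arrays, without overlap, and fell 2.56-fold, or 2.18-fold without number 3. E2F8, an E2F family repressor, fell 2.31-fold, UHRF1, which maintains DNA methylation, fell 2.20-fold and RRM2, a subunit of ribonucleotide reductase, fell 2.00-fold, each with 1 or more dosed arrays inside the range of vehicle. Without number 3 these falls were 1.82-fold, 1.83-fold and 1.63-fold and still called. The 2 that rose were CCNE1, the cyclin of the G1/S transition (0.76), and CDT1, a factor that licenses replication origins (0.64), both chosen after their values were seen. The count was 6 fallen and 2 risen without number 3 and 4 fallen and 0 risen without the replicate block, where E2F8 and UHRF1 missed the threshold with adjusted p of 0.0908 and 0.111. CDT1 missed it without the dosed array of number 3 (adjusted p = 0.0554). Mean change of the list was -0.94 in number 3 and between -0.20 and -0.02 in the other numbers. Among 11 tested genes of homologous recombination and the Fanconi anemia pathway 0 were called by limma, and 2 had an unadjusted p under 0.05. Their median was -0.13 with number 3 and 0.24 without it.

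Of 11 tested histone genes 4 fell and 0 rose (36.4% against 9.57%), with a median of -0.35. H2BC21 read 4.96, 5.97, 5.11, 4.61 and 4.65 in the QUE 30 µM arrays, against 6.18, 6.40, 6.66, 7.05 and 6.88 in the vehicle arrays, without overlap, and fell 2.98-fold. H2BC4 fell 2.05-fold and H2AJ 1.89-fold. H2BC5 fell 1.56-fold with 4 of 5 pairs in that direction and missed the threshold without the replicate block and without number 1, 5 or 6 (adjusted p of 0.0552 to 0.102). Histone genes are near-identical copies, and their probe sets may share signal. With number 2 kept, 2 of them were called.

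**Figure D3:**
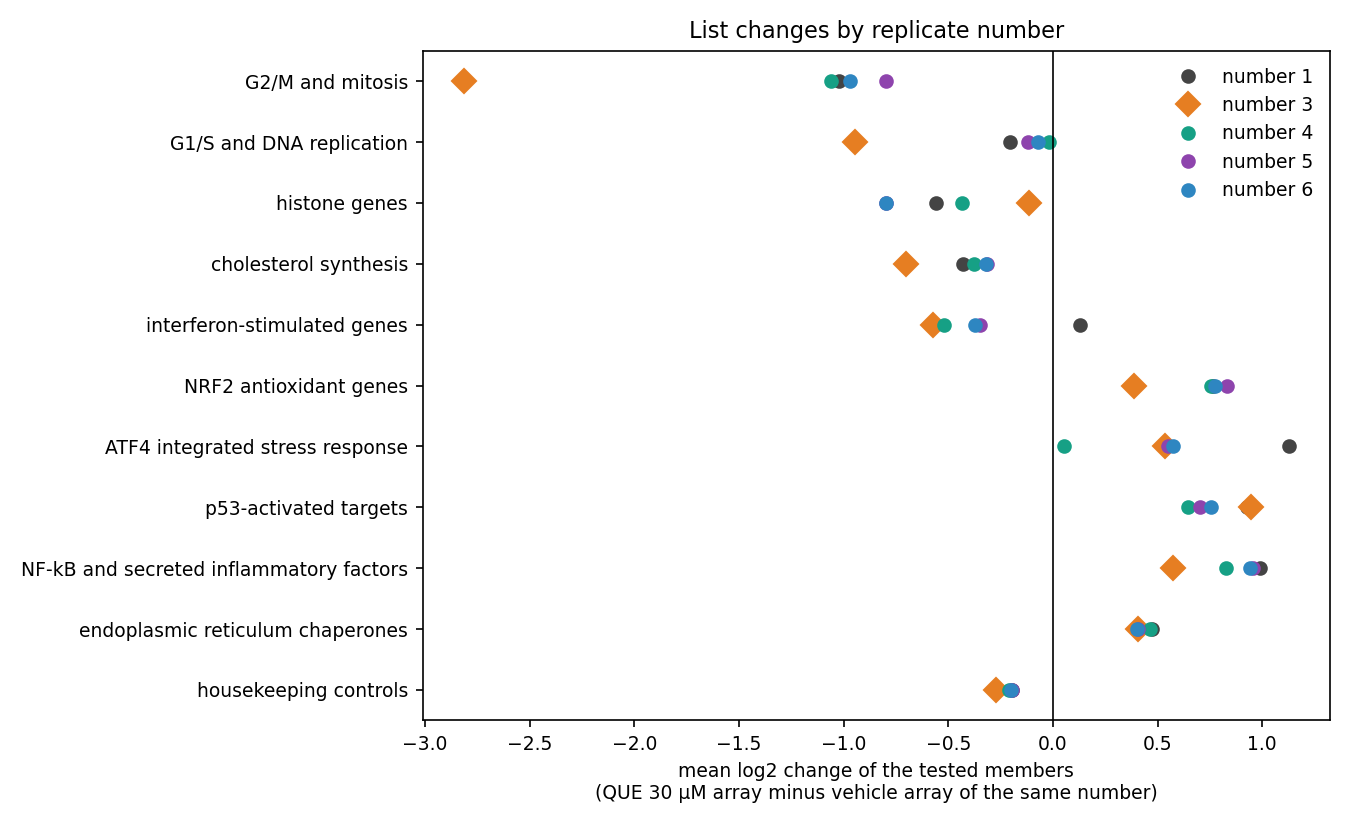
Each point is the mean log2 change over the tested members of a list, QUE 30 µM array minus vehicle array, for 1 replicate number, with number 3 as a diamond. Number 3 was at -2.81 for G2/M and mitosis, where the other numbers lay between -1.06 and -0.80, and all numbers lay between 0.40 and 0.47 for endoplasmic reticulum chaperones.

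Targets of p53, the transcription factor that responds to DNA damage and other stress, were higher. Of 29 tested members 19 rose and 0 fell, which is 65.5% against 9.78% of all genes called higher, with a median of 0.74. The same count of 19 was found without number 3 and without the replicate block, and it was 20 with number 2 kept. TP53I3, a quinone oxidoreductase, read 10.84, 11.20, 10.90, 10.37 and 10.51 in the QUE 30 µM arrays, against 8.64, 8.71, 8.80, 8.72 and 8.82 in the vehicle arrays. SPATA18, a factor of mitochondrial quality control, read 6.40, 6.67, 6.31, 5.75 and 6.14 in the QUE 30 µM arrays, against 3.85, 4.09, 4.41, 4.25 and 4.19 in the vehicle arrays. No dosed array overlapped a vehicle array in either, and they rose 4.07-fold and 4.27-fold with adjusted p of 5.47e-11 and 3.34e-12. GDF15, a stress cytokine, rose 2.86-fold and FAS, a death receptor, 2.84-fold. CDKN1A, which encodes the cyclin-dependent kinase inhibitor p21, read 9.45, 9.53, 9.13, 9.00 and 9.06 in the QUE 30 µM arrays, against 8.41, 8.53, 8.73, 8.55 and 8.53 in the vehicle arrays. MDM2, which targets p53 for degradation, read 10.59, 10.71, 10.42, 10.41 and 10.51 in the QUE 30 µM arrays, against 9.81, 9.77, 9.42, 9.84 and 9.76 in the vehicle arrays. Both sets of arrays were separate, yet the rises were small, 1.61-fold for CDKN1A and 1.75-fold for MDM2. ACER2, an alkaline ceramidase, rose 2.62-fold. BAX, a pore-forming killer protein, was not called at -0.40, and neither was BBC3 at 0.18, both named after their values were seen.

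Regulators of apoptosis gave 4 rises and 0 falls among 16 tested genes (25.0% against 9.78%), with a median of 0.21. BCL2A1, a survival protein of the BCL2 family, read 8.86, 8.63, 9.54, 9.59 and 9.64 in the QUE 30 µM arrays, against 6.78, 7.28, 7.37, 6.61 and 7.07 in the vehicle arrays, without overlap, and rose 4.69-fold. BCL2L1, which encodes the survival protein BCL-XL, rose 1.87-fold. PMAIP1, which encodes the killer protein NOXA and is also a p53 target, rose 1.99-fold. BCL2 rose 2.72-fold, with an adjusted p of 0.00743, and missed the threshold without the replicate block (adjusted p = 0.0519) and without number 6 (adjusted p = 0.0538). The members that rose include survival and killer proteins.

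Antioxidant genes of NRF2 rose in part. Of 21 tested members 8 rose and 0 fell (38.1% against 9.78%), with a median of 0.49, and 10 rose without number 3. HMOX1, which breaks heme down, read 8.38, 9.61, 8.58, 8.30 and 8.29 in the QUE 30 µM arrays, against 6.67, 7.92, 6.74, 6.09 and 6.41 in the vehicle arrays. The number 3 dosed array was highest and the number 3 vehicle array was the highest in its group too. HMOX1 rose 3.65-fold with an adjusted p of 5.82e-10. AKR1C1, an aldo-keto reductase, read 7.86, 8.23, 8.50, 8.59 and 8.14 in the QUE 30 µM arrays, against 5.23, 7.13, 5.74, 5.28 and 5.49 in the vehicle arrays. Number 3 of vehicle stood above the other vehicle arrays but below every dosed one, and AKR1C1 rose 5.61-fold. Its near-identical relative AKR1C2 rose 2.39-fold, and their probe sets may share signal. AKR1B10, a related reductase, rose 2.90-fold from a vehicle mean under 4. SLC7A11, the cystine importer, read 10.91, 9.70, 10.40, 10.81 and 10.90 in the QUE 30 µM arrays, against 8.54, 8.80, 9.20, 8.86 and 8.89 in the vehicle arrays, without overlap, and rose 3.21-fold. GCLC and TXNRD1, enzymes of glutathione and thioredoxin metabolism, changed by 1.10 and 0.86. NQO1, a quinone reductase often used to read NRF2, was not called, at 10.14, 10.41, 10.49, 10.38 and 10.39 in the QUE 30 µM arrays, against 9.99, 10.33, 10.22, 10.09 and 10.14 in the vehicle arrays. Its dosed and vehicle arrays overlapped, and the change was 0.20 ± 0.07 (SE) with an adjusted p of 0.0197.

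Heme and iron genes gave 5 rises and 0 falls among 13 tested (38.5% against 9.78%), and the count was 2 with number 2 kept and 3 without number 4 or without number 6. Besides HMOX1 these were SLC11A2, an iron transporter (1.81-fold), ALAS1, the first enzyme of heme synthesis (1.79-fold), TFRC, the transferrin receptor (1.60-fold), and SLC48A1, a heme transporter (0.62 on the log2 scale). SLC11A2 was not called under 5 other settings, without number 4, number 6 or the dosed array of number 3 among them, with changes of 0.48 to 0.84 and adjusted p up to 0.0635. TFRC was under the fold limit with probe set means (0.55) and with number 2 kept (0.47). Of the aryl hydrocarbon receptor axis, CYP1A1, CYP1A2, CYP1B1 and ALDH3A1 did not pass the filter, with probe set means of 3.40, 3.83, 3.22 and 2.85 over the 10 arrays. Of the 5 members tested, AHR, the receptor itself, read 9.76, 10.62, 10.28, 10.44 and 10.37 in the QUE 30 µM arrays, against 8.87, 9.61, 9.45, 9.52 and 9.41 in the vehicle arrays, and rose 1.90-fold, while its repressor AHRR fell 1.71-fold. The groups of AHR did not overlap. Of 10 tested genes that conjugate or export flavonoids 2 rose (20.0% against 9.78% of all genes) and 1 fell (10.0% against 9.57%). UGDH, which makes the glucuronate donor, read 9.85, 9.53, 9.70, 9.94 and 9.96 in the QUE 30 µM arrays, against 8.94, 8.69, 8.37, 8.69 and 8.56 in the vehicle arrays, and rose 2.21-fold. ABCG2, an efflux pump known to carry quercetin conjugates, read 4.14, 3.82, 3.92, 4.26 and 4.04 in the QUE 30 µM arrays, against 5.51, 5.35, 5.01, 4.91 and 5.29 in the vehicle arrays, and fell 2.26-fold. Neither gene had overlapping groups. ABCC3, an exporter of glucuronides, rose 1.68-fold with overlapping arrays, and was not called without number 1, 5 or 6 or without the vehicle array of number 1 (adjusted p of 0.0506 to 0.0660).

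Genes of the integrated stress response, which the transcription factor ATF4 turns on when amino acids run low or misfolded proteins accumulate, gave 12 rises and 0 falls among 24 tested (50.0% against 9.78%). The median was 0.57, and 7 were called higher with number 2 kept. Numbers differed, with a mean change of 1.13 in number 1 and 0.06 in number 4. ATF3, a stress-induced transcription factor, read 7.74, 6.71, 7.07, 7.03 and 7.13 in the QUE 30 µM arrays, against 5.20, 5.00, 6.20, 5.49 and 5.54 in the vehicle arrays, and rose 3.13-fold with an adjusted p of 6.85e-07. TRIB3, a pseudokinase that feeds back on ATF4, read 9.16, 8.78, 9.29, 9.14 and 9.23 in the QUE 30 µM arrays, against 7.95, 7.32, 8.34, 8.06 and 8.14 in the vehicle arrays, and rose 2.23-fold. Neither had overlapping groups, and the number 4 array was highest among the vehicle arrays in both. NUPR1, a stress-induced chromatin protein, rose 2.35-fold from a vehicle mean of 3.88, so the size of its rise is uncertain. Its number 4 vehicle array (4.97) lay above 3 of the 5 dosed arrays. ATF4 itself changed by 0.69 and DDIT3, which encodes CHOP, by 0.62. Of 19 promoters of the list with a sequence 3 (15.8%) held TGATGNAA, the letters of the amino acid response element on either strand, against 1.42% of tested genes. This share too describes how the list was composed and not the response to quercetin.

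Chaperones of the endoplasmic reticulum gave 6 rises and 0 falls among 18 tested (33.3% against 9.78%), with a median of 0.35, and 3 rises with number 2 kept. DNAJB9, a co-chaperone, read 10.00, 10.46, 9.85, 9.89 and 9.92 in the QUE 30 µM arrays, against 8.44, 9.11, 8.88, 8.61 and 8.71 in the vehicle arrays, without overlap, and rose 2.42-fold. XBP1, the transcription factor of the unfolded protein response, rose 1.78-fold, DNAJC3, an inhibitor of the kinase PERK, rose 1.72-fold and DNAJB11, a co-chaperone, rose 1.56-fold, which was under the fold limit without number 4 (0.57). HSPA5, the main chaperone of the compartment, was not called at 0.05, nor was HSP90B1 at 0.01. Of 12 cytosolic heat shock proteins 1 fell, DNAJA1 (1.52-fold), or 8.33% against 9.57% of all genes called lower, and it was under the fold limit without number 3 (-0.39) or the dosed array of number 1 (-0.56). Of 19 cytosolic aminoacyl-tRNA synthetases, enzymes that charge tRNA, 1 fell, VARS1 (1.75-fold), and 0 rose, which is 5.26% lower against 9.57%.

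Secreted inflammatory factors and genes of NF-kB, a transcription factor of inflammation, gave 8 rises and 0 falls among 16 tested (50.0% against 9.78%), with a median of 0.66. The count was 8 without number 3 and with number 2 kept, and 7 without the replicate block. CXCL8, a chemokine that draws neutrophils and is also known as interleukin 8, read 11.91, 11.61, 12.21, 12.10 and 12.25 in the QUE 30 µM arrays, against 9.41, 9.57, 9.41, 8.82 and 9.21 in the vehicle arrays. CXCL3, a related chemokine, read 6.55, 6.07, 7.02, 7.15 and 7.22 in the QUE 30 µM arrays, against 4.74, 4.26, 4.02, 4.48 and 4.69 in the vehicle arrays. IL6, a cytokine, read 6.58, 6.24, 6.86, 6.51 and 6.49 in the QUE 30 µM arrays, against 4.34, 5.17, 4.76, 3.94 and 4.09 in the vehicle arrays. In none of these did a dosed array overlap a vehicle array, and the rises were 6.64-fold, 5.15-fold and 4.22-fold, with adjusted p of 4.16e-14, 1.54e-08 and 0.00206. TNFAIP3, which encodes the feedback inhibitor A20, read 8.70, 7.61, 8.06, 7.97 and 8.14 in the QUE 30 µM arrays, against 6.62, 6.23, 6.04, 6.00 and 6.12 in the vehicle arrays, and rose 3.71-fold. The cytokines IL11 and IL1B, the NF-kB subunit RELB and the chemokine CCL20 were the other called members, with changes of 1.53, 1.16, 1.13 and 0.79, where RELB averaged under 4 in vehicle. The feedback inhibitor NFKBIA (0.28) and the subunit NFKB1 (0.08) were not called, and PTGS2, which encodes cyclooxygenase 2, had a change of -0.76 that was not called (adjusted p = 0.0925).

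Among the 14 promoters of this list with a sequence, 7 (50.0%) held a match to the NF-kB consensus on either strand within 250 bases before the start, against 11.4% of the tested genes with a sequence. Of the genes called higher 13.2% held one and of those called lower 12.1%. The list was composed of known NF-kB and inflammatory genes, so its share describes the list and not the response to quercetin. Called and uncalled members were not compared. Windows of the chemokine, the feedback inhibitor and the cytokine with rises described above are shown with NF-kB consensus matches in capitals.
CXCL3, GRCh38.p14 chr4:74038690-74038939, minus strand: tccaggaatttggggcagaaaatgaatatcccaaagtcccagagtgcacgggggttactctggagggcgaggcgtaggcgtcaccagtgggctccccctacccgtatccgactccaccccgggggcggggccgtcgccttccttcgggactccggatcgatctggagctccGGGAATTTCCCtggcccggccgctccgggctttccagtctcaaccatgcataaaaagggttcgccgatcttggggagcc
TNFAIP3, GRCh38.p14 chr6:137867009-137867258, plus strand: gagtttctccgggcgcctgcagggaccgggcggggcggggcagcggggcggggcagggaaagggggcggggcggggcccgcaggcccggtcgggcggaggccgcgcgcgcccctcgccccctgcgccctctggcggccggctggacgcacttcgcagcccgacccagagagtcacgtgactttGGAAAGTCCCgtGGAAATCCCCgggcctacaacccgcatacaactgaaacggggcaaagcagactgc
IL6, GRCh38.p14 chr7:22726950-22727199, plus strand: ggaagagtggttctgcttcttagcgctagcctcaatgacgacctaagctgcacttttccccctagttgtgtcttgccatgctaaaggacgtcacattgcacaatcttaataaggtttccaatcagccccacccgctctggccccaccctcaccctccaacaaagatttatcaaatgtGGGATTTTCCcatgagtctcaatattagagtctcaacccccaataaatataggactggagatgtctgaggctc
CXCL3 has a match on each strand, which overlap except for 1 base at either end, TNFAIP3 has 2 neighbouring matches, and IL6 has 1.

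Interferon-stimulated genes, which defend against viruses, gave 6 falls and 1 rise among 14 tested (42.9% against 9.57% lower, 7.14% against 9.78% higher). The median of the list was -0.06, close to the 0.01 of all genes. RIGI, a sensor of viral RNA, read 6.00, 4.45, 5.59, 6.18 and 6.23 in the QUE 30 µM arrays, against 6.74, 6.73, 6.84, 6.87 and 6.88 in the vehicle arrays, and fell 2.17-fold. IRF1, a transcription factor, read 5.43, 5.16, 4.91, 4.89 and 4.87 in the QUE 30 µM arrays, against 6.02, 5.96, 5.68, 6.05 and 6.14 in the vehicle arrays, and fell 1.89-fold. Both genes had separate groups, and the number 3 dosed array of RIGI was the lowest. Numbers differed, with a mean change of the list of 0.13 in number 1 and of -0.57 to -0.35 in the others, and the number 1 vehicle array had the lowest list mean (5.83, others 6.14 to 6.22). IFIT1 and IFI44 fell 2.98-fold and 2.31-fold to dosed means under 4. OAS3, which makes an activator of RNA decay, was the 1 member that rose (0.71), and MX1 and ISG15 were not called, at -0.01 and -0.03.

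Output and feedback genes of the RAS-MAPK cascade, which the mutant NRAS of this line drives, gave 6 rises and 2 falls among 19 tested (31.6% against 9.78% higher, 10.5% against 9.57% lower), with a median of 0.42. DUSP5, a nuclear phosphatase of ERK, read 11.01, 11.13, 11.29, 10.94 and 11.06 in the QUE 30 µM arrays, against 8.41, 8.50, 9.01, 8.40 and 8.30 in the vehicle arrays. Number 4 was the highest in both groups, the groups did not overlap, and the rise was 5.91-fold with an adjusted p of 1.49e-16. SPRY4, a feedback inhibitor of receptor tyrosine kinases, read 7.83, 7.39, 7.61, 7.60 and 7.50 in the QUE 30 µM arrays, against 6.23, 5.88, 6.33, 5.94 and 5.80 in the vehicle arrays, without overlap, and rose 2.92-fold. FOSL1, an AP-1 subunit that ERK stabilises, rose 2.21-fold and HBEGF, an EGF receptor ligand, 2.11-fold. The 2 that fell were the transcription factor ETV1 (-0.77) and PHLDA1 (-0.93). CCND1, the cyclin of early G1, had a change of 0.58, just under the fold limit, with an adjusted p of 0.00299. It was called under 9 other settings, with number 4 left out among them. MYC, the growth-promoting transcription factor, was not called at 0.22 (adjusted p = 0.199). DUSP6, SPRY1 and FOS did not pass the filter.

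Immediate early genes, the first transcription factors switched on by growth or stress signals, gave 8 rises and 1 fall among 15 tested (53.3% against 9.78% higher, 6.67% against 9.57% lower), with a median of 0.58. With number 2 kept, 5 rose. Besides ATF3 they included KLF4 (2.47-fold), NR4A2 (2.47-fold) and KLF6 (1.97-fold), all transcription factors. KLF6 read 11.39, 11.22, 11.40, 11.35 and 11.37 in the QUE 30 µM arrays, against 10.60, 10.07, 10.46, 10.43 and 10.30 in the vehicle arrays, and every dosed array was above every vehicle array. KLF2, a factor of quiescence, was the 1 that fell (-0.71). EGR1, the classic early gene of ERK, read 6.53, 8.07, 7.23, 6.52 and 6.81 in the QUE 30 µM arrays, against 6.30, 7.28, 7.56, 6.82 and 7.04 in the vehicle arrays, with overlapping groups, a change of 0.03 ± 0.29 (SE) and an adjusted p of 0.942. Of 15 genes that FOXO transcription factors turn on, 4 rose (26.7% against 9.78%) and 2 fell (13.3% against 9.57%). CITED2, a transcriptional co-regulator, rose 2.00-fold and IRS2, an adaptor of the insulin receptor, 1.89-fold, while TXNIP fell as described and SESN3 fell 1.62-fold, just under the fold limit without number 5 (-0.58).

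Genes of cholesterol synthesis gave 6 falls and 0 rises among 17 tested (35.3% against 9.57%), with a median of -0.44. The count was 6 without number 3, with number 2 kept and without the block. EBP, a sterol isomerase, read 7.63, 6.96, 7.40, 7.71 and 7.65 in the QUE 30 µM arrays, against 8.95, 8.41, 8.67, 8.71 and 8.71 in the vehicle arrays, without overlap, and fell 2.33-fold. DHCR7, the last enzyme of the pathway, fell 2.07-fold and ACAT2, which makes acetoacetyl-CoA, 2.08-fold. HMGCS1, which makes HMG-CoA, read 7.11, 5.09, 7.02, 7.26 and 7.16 in the QUE 30 µM arrays, against 8.03, 6.71, 7.51, 7.83 and 7.76 in the vehicle arrays. Both number 3 arrays were the lowest of their groups, and without the dosed array of number 3 the change was -0.56, which is under the fold limit. SREBF1, a transcription factor of fatty acid synthesis, fell 1.78-fold and ELOVL6, a fatty acid elongase, 1.91-fold, the 2 called among 10 genes of that pathway (20.0% against 9.57%). Of 22 genes of hypoxia and glycolysis 5 fell (22.7% against 9.57%) and 1 rose (4.55% against 9.78%), and 3 fell with number 2 kept. ALDOC, an aldolase, read 7.32, 7.80, 8.19, 8.04 and 7.80 in the QUE 30 µM arrays, against 8.44, 9.37, 9.75, 9.31 and 9.08 in the vehicle arrays, without overlap, and fell 2.57-fold. CA12, a carbonic anhydrase, fell 2.04-fold, P4HA1, a collagen prolyl hydroxylase, 1.73-fold and ANKRD37 1.66-fold. The 1 that rose was P4HA2, another collagen prolyl hydroxylase (0.60), named after its value was seen. LDHA and SLC2A1, textbook hypoxia genes, were not called, at -0.32 and -0.07. None of 8 tested genes of metallothioneins and zinc transport was called by limma, and 2 had an unadjusted p under 0.05.

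Few matrix and adhesion genes fell. Of 24 genes of the extracellular matrix 3 fell and 0 rose (12.5% against 9.57%). VCAN, a large proteoglycan, read 8.38, 8.85, 7.94, 8.25 and 8.44 in the QUE 30 µM arrays, against 9.59, 10.58, 10.10, 10.10 and 10.06 in the vehicle arrays, without overlap, and fell 3.28-fold. COL1A1, a chain of collagen I, fell 3.20-fold with overlapping groups, and COL13A1, a membrane collagen, fell 1.75-fold. Of 13 integrins and adhesion genes 3 fell and 0 rose (23.1% against 9.57%), namely ITGB8 (3.74-fold), ITGA4 (2.65-fold) and ITGA11 (1.83-fold). Among 16 targets of TGF-beta, YAP and SRF, 6 rose and 3 fell (37.5% against 9.78% higher, 18.8% against 9.57% lower), and 2 rose with number 2 kept. TGFB2, a TGF-beta ligand, read 7.65, 6.53, 6.79, 7.68 and 7.45 in the QUE 30 µM arrays, against 9.21, 9.70, 9.59, 9.43 and 9.49 in the vehicle arrays, and fell 4.80-fold. ACTA2, smooth muscle actin, read 8.78, 9.80, 9.34, 8.81 and 8.90 in the QUE 30 µM arrays, against 7.25, 8.15, 8.21, 7.64 and 7.66 in the vehicle arrays, and rose 2.54-fold. Neither gene had overlapping groups. TGFBI, a matrix protein, fell 3.06-fold and ANKRD1, a YAP target, rose 2.00-fold.

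Plasminogen activators, matrix metalloproteinases and their inhibitors gave 4 rises and 0 falls among 11 tested (36.4% against 9.78%), and 2 rises with number 2 kept. MMP1, a collagenase, rose 2.07-fold, SERPINE2, an inhibitor of thrombin and urokinase, 2.01-fold and PLAUR, the urokinase receptor, 1.66-fold. MMP3, a stromelysin, rose 1.54-fold from a vehicle mean of 3.99, so the size of its rise is uncertain. PLAUR was under the fold limit with probe set means (0.53) and with number 2 kept (0.58). MMP3 missed the threshold without the replicate block, with an adjusted p of 0.246, and was under the fold limit without the dosed array of number 1 (0.54) or the vehicle array of number 5 (0.53). Of 21 genes of autophagy and lysosomes 3 rose and 1 fell (14.3% against 9.78% higher, 4.76% against 9.57% lower). WIPI1, a protein of the early autophagosome, rose 2.38-fold, MCOLN1, a lysosomal channel, 1.67-fold and GPNMB, a lysosomal glycoprotein, 1.59-fold, while TFEB, the transcription factor of lysosomal genes, fell 2.04-fold. GPNMB was not called without number 1, 5 or 6 or without any of 5 single arrays of these numbers (adjusted p of 0.0517 to 0.145). Of 24 genes of ribosome biogenesis 2 fell (8.33% against 9.57%), UTP20 (1.88-fold), which processes ribosomal RNA, and POLR1B (1.59-fold), a subunit of RNA polymerase I, which was under the fold limit without number 3. None of 8 housekeeping controls and 6 mesenchymal markers tested was called by limma, while 6 and 4 had an unadjusted p under 0.05, with medians of -0.17 and -0.18.

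**Figure D4:**
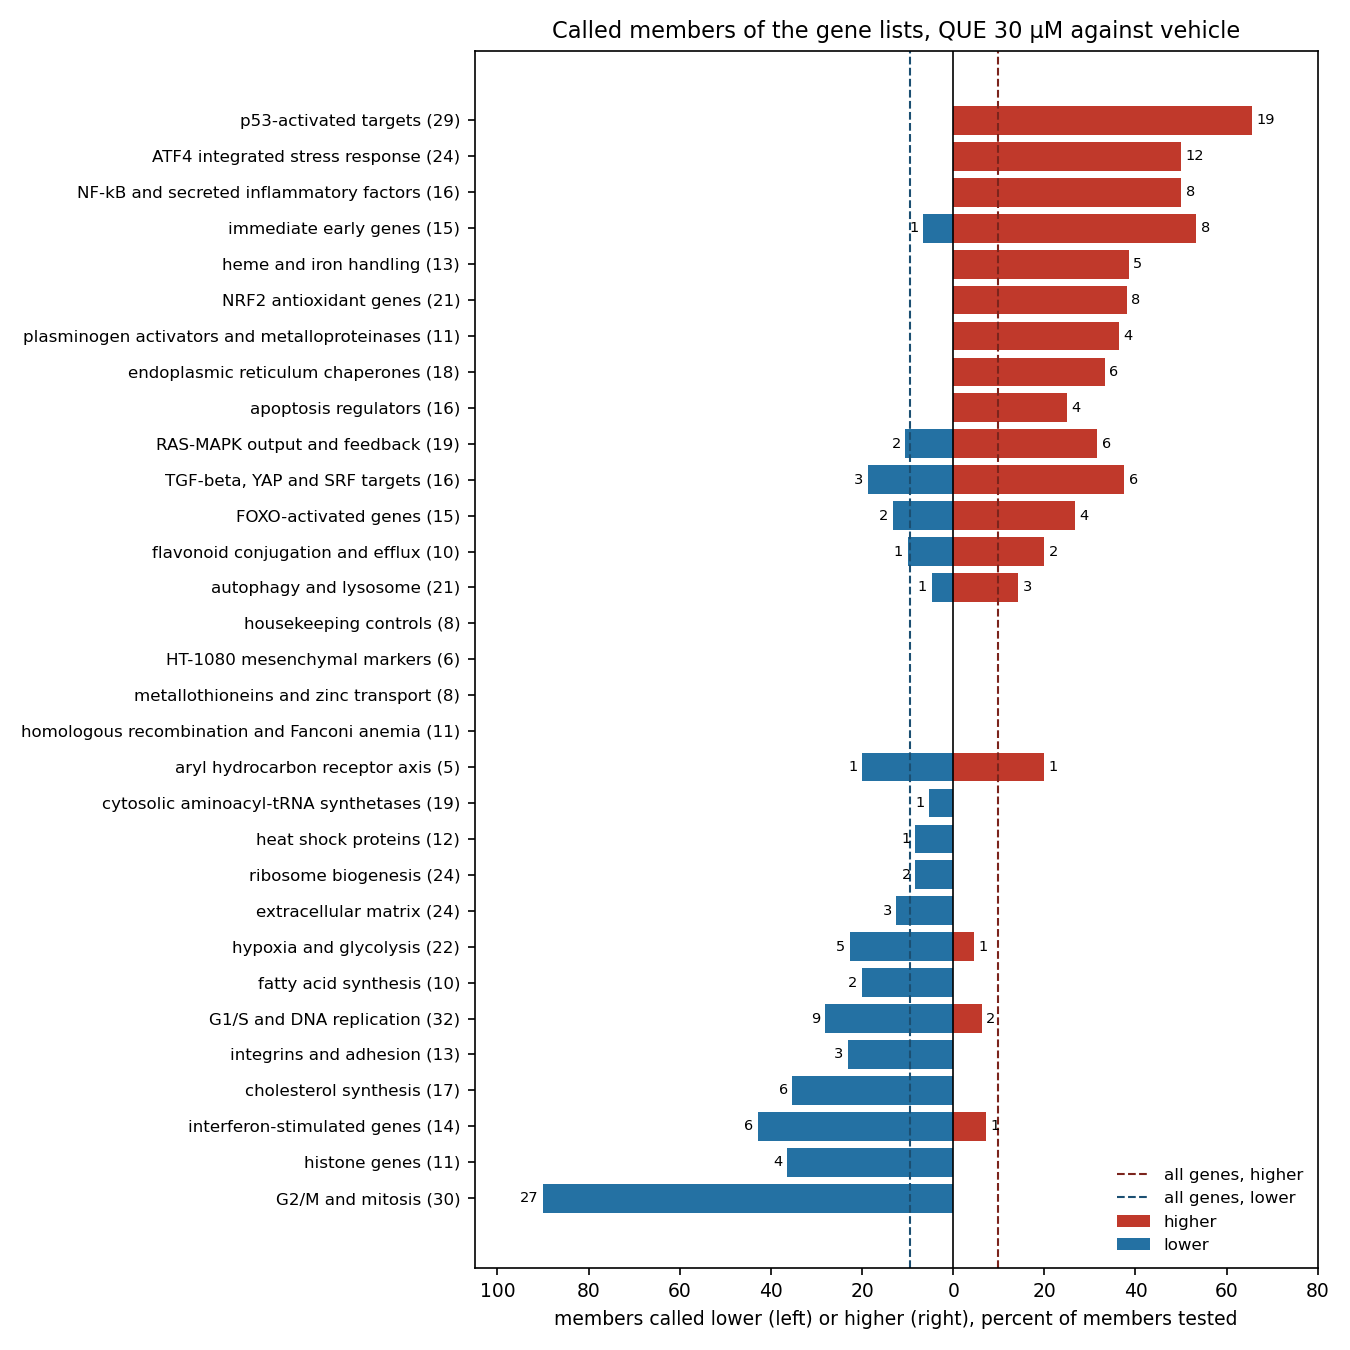
Bars give the percent of tested members called higher (red, right) or lower (blue, left) at QUE 30 µM against vehicle, with the number of called members at the bar and the number tested in parentheses. Dashed lines mark the 9.78% and 9.57% of all tested genes called higher and lower. The longest bars are 65.5% of p53-activated targets on the right and 90.0% of G2/M and mitosis on the left.

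Counts of called genes differed most between 10 and 60 µM. Called genes against the same vehicle arrays numbered 13 (0.12%) for 1 µM, 1 higher (0.00923%) and 12 lower (0.111%). They numbered 23 (0.212%) for 3 µM, 5 higher (0.0462%) and 18 lower (0.166%). At 10 µM 299 genes were called (2.76%), 177 higher (1.63%) and 122 lower (1.13%). Beyond the 2095 genes of 30 µM, 3023 were called for 60 µM (27.9%), 1510 higher (13.9%) and 1513 lower (14%), 2921 for 80 µM (27%) and 3244 for 100 µM (30%). These comparisons share their vehicle arrays, so their calls are not independent. Genes were filtered and probe sets chosen on the 10 arrays of 30 µM and vehicle. Genes above background only at another dose were thus not tested, and the counts of the other doses are not on an equal footing. In the difference of QUE 30 µM minus QUE 10 µM 876 genes were called (8.09%), 346 higher (3.19%) and 530 lower (4.89%). In QUE 60 µM minus QUE 30 µM 61 were called (0.563%), 38 higher (0.351%) and 23 lower (0.212%), a count that rests on single numbers. It was 100 without number 1, 211 without number 3, 0 without number 4 and 4 without number 5 or number 6, and it was 5 without the replicate block.

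Of the mitosis list 20 of 30 genes were lower at 30 than at 10 µM (against 4.89% of all genes), or 18 without number 3 (against 5.01%), and 0 were called by limma at 10 µM against vehicle. DLGAP5 differed from vehicle by -0.52 at 10 µM (not called), by -2.98 at 30 µM and by -4.26 at 60 µM. Other genes with calls in the 30 minus 10 µM difference and little change at 10 µM were CYP4F3, with changes of 0.21, 3.00 and 4.34 at 10, 30 and 60 µM, TREM2, with 0.20, 2.61 and 4.01, PALM2, with 0.03, 1.56 and 1.78, and SLC38A6, with 0.03, -2.54 and -3.18. HSD17B2 was called at each of these doses, with changes of 1.82, 3.48 and 2.74, and its difference of 30 minus 10 µM was also called. GALNT15 fell at each, with -1.46, -3.76 and -4.14, and SLCO1B3 was called at the upper 2 only, with -0.31, -2.42 and -2.97.

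The NRF2 list had more called members at the lower dose, 12 of 21 at 10 µM, where 1.63% of all genes were higher. It had 8 at 30 µM, where 9.78% were, and 6 at 60 µM, where 13.9% were. In the 30 minus 10 µM difference 1 of the 21 was lower and 0 higher, against 4.89% and 3.19% of all genes. That count does not set the list apart from all genes. NQO1 was called at 10 µM (0.65) but not at 30 µM (0.20) or 60 µM (-0.14), and its 30 minus 10 µM difference was -0.44 with an adjusted p of 3.78e-05, short of the fold limit. AKR1C1 changed by 3.19 at 10 µM, 2.49 at 30 µM and 1.39 at 60 µM, and HMOX1 by 1.90, 1.87 and 1.83. CXCL8 was above vehicle by 2.56 at 10 µM, 2.73 at 30 µM and 2.31 at 60 µM, all called. Of the 29 tested genes of the p53 list 4 were higher at 10 µM, 19 at 30 µM and 25 at 60 µM. Of all genes 1.63%, 9.78% and 13.9% were higher at these doses, so calls rose with dose there too. In the list 10 were higher at 30 than at 10 µM (against 3.19% of all genes), or 9 without number 3 (against 4.21%). CDKN1A was not called at 10 µM (0.12) and was called at 60 µM (1.26), but its 30 minus 10 µM difference did not reach a call (0.56, adjusted p = 7.08e-04).

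A few inflammatory and protease genes of the lists, chosen here after their values were seen, were called at the lowest doses. CXCL8 was the 1 gene of all tested that was called higher at 1 µM, by 1.11, and it was called at 3 µM by 1.66. IL1B, the secreted form of interleukin 1, differed from vehicle by -1.71 at 1 µM (called lower, adjusted p = 0.0498), -1.60 at 3 µM and 0.06 at 10 µM (neither called), and was called higher at 30 µM by 1.16. MMP1 differed by -0.94 and -0.76 at 1 and 3 µM (both called lower) and by 0.25 at 10 µM (not called), and was called higher at 30 µM by 1.05. IL1A and IL24, cytokines of the same list as IL1B, were called lower at 1 and 3 µM, by -1.54 and -1.65 for IL1A and by -1.94 and -1.87 for IL24, and had changes of -0.26 and 0.48 at 30 µM that were not called. CXCL8 and MMP1 had opposite signs at 1 and 3 µM and the same sign at 30 µM.

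EGR1 moved in both directions across the series. Its difference from vehicle was -1.07 at 10 µM (called), 0.03 at 30 µM (not called) and 1.33 at 60 µM (called), and both the 30 minus 10 µM and the 60 minus 30 µM difference were called (1.10 and 1.30). Its SD over the 5 arrays was 0.54 at 10 µM, 0.65 at 30 µM and 1.23 at 60 µM. CLMP, an adhesion molecule, differed from vehicle by 0.80 at 10 µM, 0.60 at 30 µM and -0.36 at 60 µM, with a called fall in 60 minus 30 µM (-0.96). LCE1B, a skin barrier gene, ACER2 and CYP4F3 were higher at 60 than at 30 µM, by 1.60, 1.10 and 1.34. KIF14, PDE5A, a phosphodiesterase of cyclic GMP, and AURKA were lower, with differences of -1.13, -1.07 and -0.96. Without number 4, 0 genes were called in 60 minus 30 µM, so none of the 60 minus 30 µM calls named in this paragraph was kept there. KIF14, a mitotic kinesin, was not called at 30 µM without number 3 (-0.32), number 1 or number 6, and the call of CLMP at 30 µM was lost without number 4, 5 or 6.

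**Figure D5:**
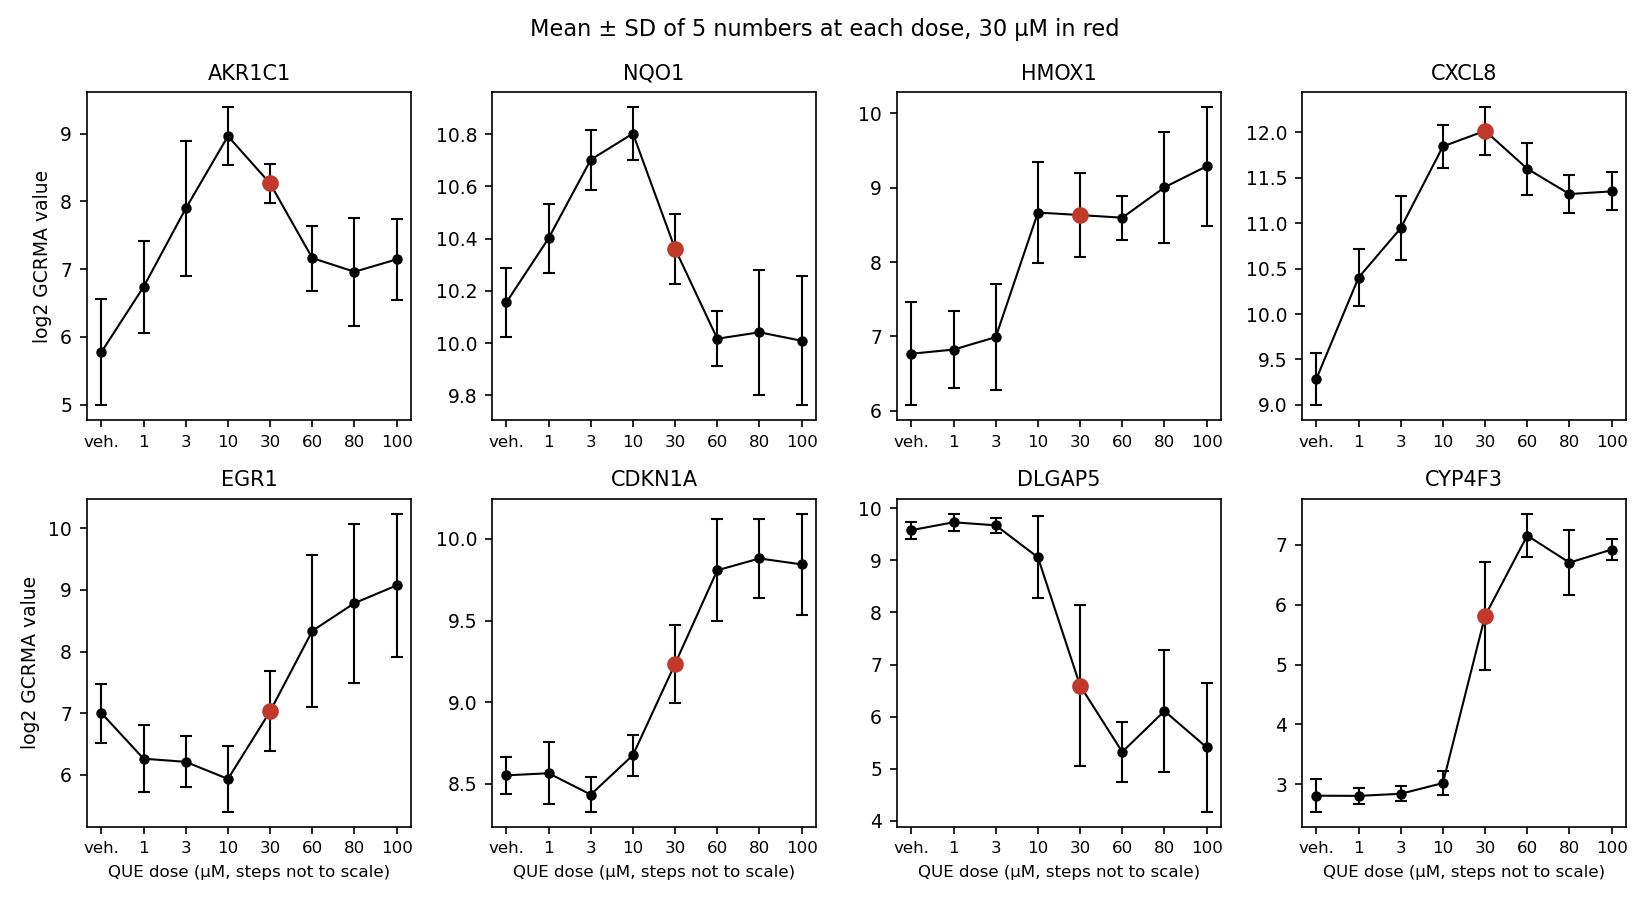
Points are the mean log2 GCRMA value of 5 replicate numbers at each dose and bars are the SD, with vehicle at the left, doses in steps not to scale and 30 µM in red. NQO1 and AKR1C1 are highest at 10 µM, DLGAP5 and CYP4F3 change mainly between 10 and 60 µM, and EGR1 is lowest at 10 µM.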

How the data were processed

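The deposited values are log2 GCRMA summaries per probe set, a scale on which probe signals were background-corrected, quantile-normalized and summarised by the authors. The submitters' processing notes name GCRMA and Partek, with versions not given in the sources used here. The genome build is also not given there. Of 54613 probe sets, 40914 carried 1 gene symbol, 864 several and 12835 none in the platform annotation, and 40799 were matched to RefSeq. Probe sets reaching 4 in at least 5 of the 10 arrays were kept (22914, of which 19790 with 1 symbol), and the one with the highest mean stood for its gene, giving 10831 genes. All quercetin and vehicle groups of numbers 1, 3, 4, 5 and 6 (8 groups, 40 arrays, QUE 100 µM number 6 being 2 arrays averaged) were fitted together in limma 3.58.1 (R 4.3.3, lmFit and eBayes with trend) with the number as a block. Benjamini-Hochberg adjustment ran over all tested genes, and a call also needed a fold of 1.5. One vehicle title, number 4, carries an unexplained -nf.

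Numbers paired the samples only in part. Deviations from the group means were correlated across genes between the dosed and vehicle arrays of a number. The r was 0.614, 0.280, 0.448, 0.171 and 0.214 for numbers 1, 3, 4, 5 and 6. The highest r of the dosed array with a vehicle array of another number was -0.032, 0.335, 0.070, 0.145 and 0.174. Pairing was thus clear for numbers 1 and 4, slight for numbers 5 and 6 and absent for number 3. Genes were named by rule: the 14 largest called rises and falls without overlap, leaving out uncharacterised IDs, up to 4 called members of each of 34 lists, the 4 largest rises and falls between doses, and CDKN1A, MDM2, GDF15, HMOX1, NQO1, CYP1A1, CCND1 and MYC always. The comparison, members and lists were chosen with earlier results of these data known. List members named beyond the rule were chosen after their values were seen. In data simulated for the 10831 genes of this comparison, 35 of 50 genes changed by 0.7 log2 were called, 47 of 50 at 1, 50 of 50 at 2 and 1 of 10631 unchanged genes. No set test was run. Alternatives were the fit without the block, with only 2 groups, with number 2, other filters, probe set means, renewed quantile normalization, no trend, other fold limits, the -nf arrays left out, and each number or single array left out, the last chosen after seeing the data. The number of arrays limits the precision.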

Additional observations from a re-analysis of the deposited data

Results flagged for a closer look

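Of 312 groups of 5 values examined, 35 (11.2%) had a highest or lowest array that stood apart from the other 4 by Dixon's criterion, where chance gives about 1 in 20 groups, or 5%. The dosed array of number 3 accounted for 17 of them. In what follows, the level of the array is given first and the range of the other 4 arrays of its group in parentheses, on the log2 scale.

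Number 3 of QUE 30 µM was lowest for NMRAL2P at 5.16 (6.46 to 6.93), DLGAP5 at 3.91 (6.71 to 7.74), SLCO1B3 at 4.66 (5.40 to 5.70) and TRIB3 at 8.78 (9.14 to 9.29). It was also lowest for ACAT2 at 6.59 (7.66 to 7.92), HMGCS1 at 5.09 (7.02 to 7.26), P4HA1 at 9.40 (9.70 to 9.76), POLR1B at 8.18 (9.08 to 9.17) and KIF14 at 6.62 (8.23 to 8.68). The same array was lowest for the mean of G2/M and mitosis at 6.84 (8.32 to 8.89), the mean of cholesterol synthesis at 7.27 (8.00 to 8.11) and the mean of fatty acid synthesis at 7.51 (7.87 to 7.92). It was highest for CLIC3 at 3.73 (2.90 to 3.03), COL8A1 at 3.58 (2.70 to 2.91), CITED2 at 9.22 (8.29 to 8.51), HMOX1 at 9.61 (8.29 to 8.58) and DNAJB9 at 10.46 (9.85 to 10.00). The level of 1 other dosed array, number 1, was highest for MCOLN1 at 6.10 (5.45 to 5.55).

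Among the vehicle arrays number 1 was lowest for SLC2A12 at 6.33 (7.73 to 8.16), TMEM87B at 7.95 (8.44 to 8.61), H2BC5 at 8.21 (8.73 to 8.91), AHR at 8.87 (9.41 to 9.61), PDE5A at 7.63 (8.23 to 8.35), the mean of FOXO-activated genes at 7.32 (7.82 to 8.01) and the mean of interferon-stimulated genes at 5.83 (6.14 to 6.22). That array was highest for SLC11A2 at 7.77 (7.15 to 7.30). Among the vehicle arrays number 3 was lowest for the mean of cholesterol synthesis at 7.97 (8.37 to 8.43). That array was highest for AKR1C1 at 7.13 (5.23 to 5.74) and the mean of endoplasmic reticulum chaperones at 10.15 (10.02 to 10.04). Among the vehicle arrays number 4 was lowest for DNAJA1 at 11.10 (11.48 to 11.58), MDM2 at 9.42 (9.76 to 9.84) and KIF14 at 8.28 (8.92 to 9.17). That array was highest for DUSP5 at 9.01 (8.30 to 8.50), NUPR1 at 4.97 (3.51 to 3.73) and CA12 at 8.36 (7.92 to 7.99).

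The pair of number 2, which entered no count of the report unless stated, responded unlike the other quercetin pairs. Its change had a correlation across genes of 0.784 with etoposide at 0.1 µM and of 0.116 with the mean quercetin change of the other numbers at 30 µM. How those arrays came to differ was not tested.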

How the results depend on the processing

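The 2095 calls of QUE 30 µM against vehicle were between 2035 and 2098 when 1 number was left out and between 1891 and 2189 when 1 array was. Without the replicate block there were 1959 calls, all of them among the 2095 (93.5%). With only the 2 groups in the fit there were 2143. With number 2 kept there were 1562, of which 1536 were shared with the same direction (73.3% of the 2095). Higher calls ranged over 994 to 1103 without a number and 947 to 1167 without an array, and lower calls over 937 to 1100 and 944 to 1091. With no fold limit 5388 genes were called, 2753 higher and 2635 lower, and at a limit of 2 there were 643, 292 higher and 351 lower. The 876 calls of QUE 30 µM minus QUE 10 µM became 470 with number 2 kept, 3121 with no fold limit and 210 at a limit of 2, and ranged over 679 to 999 without a number and 595 to 935 without an array. The 61 calls of QUE 60 µM minus QUE 30 µM became 5 without the replicate block, 249 with only the 2 groups, 20 with number 2 kept, 177 with no fold limit and 9 at a limit of 2. They ranged over 0 to 211 without a number and over 6 to 260 without a QUE 30 µM or vehicle array, with the most calls where number 3 was left out. The causes of these shifts were not tested, apart from the fold limits, which set them by construction.

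Of 125 named genes 103 stayed called or uncalled, as in the main fit, under every setting run apart from the fold limits. With the filter at log2 5 only 115 of them were tested. Among the named genes called in the main fit 0 changed direction. Uncalled genes were not counted for this, and EGR1 went from 0.03 to -0.16 without number 3. Without the replicate block 7 missed the threshold (E2F8, UHRF1, H2BC5, BCL2, MMP3, GPNMB and KIF14), and with number 2 kept 15 did. With probe set means in place of the highest probe set 6 lost their call (H2BC5, SLC11A2, TFRC, DNAJA1, PLAUR and POLR1B), and CCND1 gained one. Changes near the fold limit, and values under 4, are the least certain.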
